A study of Mus musculus with 6 samples.

Results

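The genes of sterol and fatty acid synthesis were followed in KPC cells with and without silencing of Brca2. They were taken as a list of 36 gene symbols, of which 35 are among the 10616 genes of the count table, and Fdft1 was not analysed here. Of these 35 members, 17 encode enzymes of the sterol pathway, 6 encode the SREBP regulators and their near neighbours, and 12 encode enzymes of fatty acid synthesis and use. KPC is a mouse pancreatic ductal adenocarcinoma line, derived from tumors of genetically engineered mice. KPC-shBrca2 cells carry a lentiviral pLKO.1 hairpin against Brca2, which encodes a protein needed for DNA repair by homologous recombination, and KPC-shControl cells carry a non-targeting hairpin in the same vector, with 3 libraries in each group. Both groups are the same line, were selected with puromycin, were cultured in dishes in medium with serum, and were sorted for live cells before poly(A) RNA was captured and sequenced from the 3' end. A single line and a knockdown, not a deletion, therefore stand behind every value. Whether the 3 libraries of a group are separate cultures is not clear from the labels and methods, so that p-values measure only the spread between these samples, which may be technical.

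Animal cells make cholesterol from acetyl-CoA through mevalonate, squalene and lanosterol, and they make fatty acids by carboxylating acetyl-CoA to malonyl-CoA, building palmitate from it, and then elongating or desaturating the chain. Both routes are switched on by the SREBP transcription factors. Scap escorts these factors out of the endoplasmic reticulum when sterols are low, the Insig proteins hold them back when sterols are high, and the cleaved factors then bind sterol regulatory elements in the promoters of the synthesis genes. Proliferating tumor cells use both routes to build membranes.

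Total counts ranged from 1519340 to 2452467 per library. Brca2 itself (chr5:150522297-150570147, GRCm38) had 10, 11 and 14 raw counts in the shBrca2 libraries 1 to 3 and 33, 52 and 33 in the shControl libraries 1 to 3. All shBrca2 libraries lay below all shControl libraries, and the log2 fold change of shBrca2 over shControl was -1.61 (SE 0.44, DESeq2 likelihood ratio test, adjusted p = 0.029). That call was lost without shBrca2 replicate 2, shBrca2 replicate 3 or shControl replicate 2, where the log2 fold change stayed between -1.70 and -1.46, as in all 6 fits without a library. In some alternative fits with all 6 libraries Brca2 had no adjusted p, so that no call was possible there. Brca2 overlaps N4bp2l1 on the opposite strand. The main axis of variation over all genes, which held 40.9% of the variance, did not follow the groups: its scores were -21.6, 1.16 and -22.0 in shBrca2 and -9.10, 13.6 and 38.0 in shControl. On the next axis, with 23.6% of the variance, the groups did not overlap, at 4.66, 17.7 and 11.8 in shBrca2 and -31.9, -5.51 and 3.29 in shControl. Of the epithelial markers, 7 of 8 were in the table, and their summed normalized counts were 16512 to 17309 in shBrca2 and 17435 to 18547 in shControl. Krt18, Krt19 and Krt8 made up most of these sums, while Krt7, also a keratin, rose in shBrca2 (log2 fold change 1.21, DESeq2 adjusted p = 2.07e-06). Cdh1 had a log2 fold change of 0.32 (DESeq2 adjusted p = 0.690). Epcam and Cldn7 were barely detected, with mean normalized counts of 6.52 and 5.36. Few markers of other cell types were in the table: 1 of 8 fibroblast markers (Col1a2), 1 of 7 immune markers (Cd68), 0 of 4 endothelial, 1 of 4 adipocyte (Cidec) and 2 of 4 hepatocyte markers (Ttr and Apoa1). Cidec, also a lipid droplet gene, had 142 to 198 normalized counts in shBrca2 and 133 to 138 in shControl, without overlap (log2 fold change 0.37, DESeq2 adjusted p = 0.653). The summed hepatocyte markers, mostly Ttr, were 56.7 to 99.2 in shBrca2 and 23.5 to 38.4 in shControl. Ttr itself rose in shBrca2 (log2 fold change 1.34, DESeq2 adjusted p = 0.017). The part of the Cidec and hepatocyte marker differences in the results below was not tested.

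Few sterol and fatty acid synthesis genes passed a test between the groups. A gene was called when the Benjamini-Hochberg adjusted p of the DESeq2 likelihood ratio test was under 0.1, the absolute log2 fold change over 0.5 and the mean normalized count over 5. By this rule 1 of the 35 members was called, Pmvk, and it was lower in shBrca2. Over all genes tested 1.27% were called, with 0.77% higher and 0.5% lower. At an unadjusted p under 0.05 stood 4 members, Ebp and Acsl3 on the higher side and Pmvk and Dhcr7 on the lower side. This is 11.4% of the members, beside 8.66% of all genes tested (4.55% higher and 4.11% lower). In 6 members the groups did not overlap, Pmvk, Fdps and Dhcr7 being lower in every shBrca2 library and Ebp, Acsl3 and Scd1 higher, beside 20.6% of all genes tested (10.2% higher and 10.4% lower). The median log2 fold change of the members was -0.08, with 14 above 0 and 21 below, while that of all genes tested was -0.00094.

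These data bound the change of most members. The log2 fold changes of the 35 members ran from -0.61 to 0.76, with a median standard error of 0.19, and 4 of them were larger than 0.5 in size. The 95% interval of the log2 fold change lay within 1 of 0 in 31 members and within 0.5 of 0 in 11. The widest intervals were those of Fasn, Acaca and Idi1, which had few counts. A coding gene overlaps on the opposite strand in 12 members, among them Hmgcs1, Sqle, Srebf1, Srebf2, Scap, Acly and Acaca, and without a statement on strand in the counting the reads of such pairs cannot be told apart. As a share of all counts, the members together took 0.883% to 0.949% of each library. In shBrca2 this share was 0.894%, 0.921% and 0.937%, and in shControl it was 0.883%, 0.937% and 0.949%, so that the groups overlapped.

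**Figure D1:**
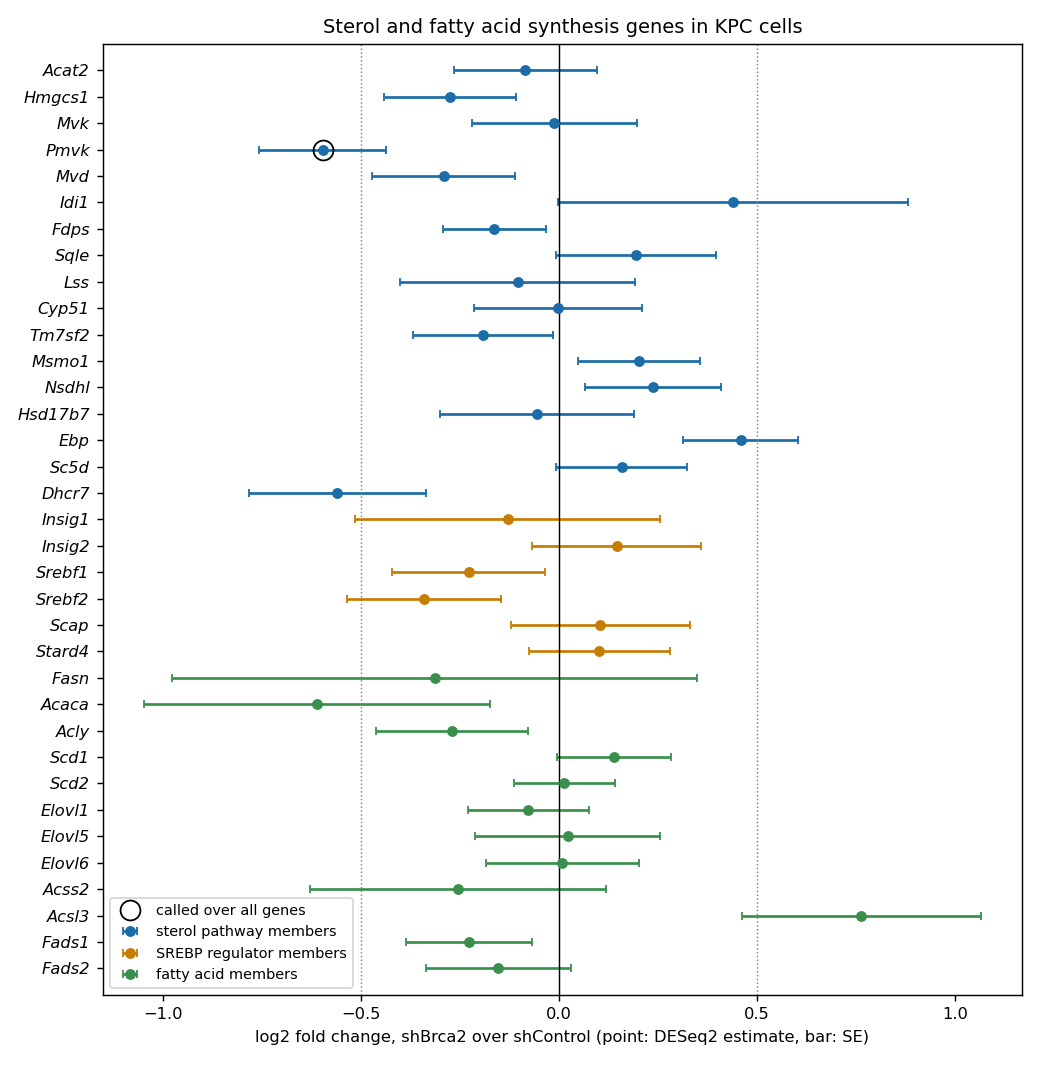
Log2 fold change of shBrca2 over shControl (horizontal axis) for each of the 35 members, with bars of the DESeq2 standard error, grouped by role. The 95% intervals, which are not drawn, cross 0 in most members but not in Pmvk, Dhcr7, Ebp and Acsl3. Pmvk was the 1 member called.

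In the mevalonate steps, which lead from acetyl-CoA to farnesyl diphosphate, Pmvk fell. Pmvk (chr3:89454541-89469014) encodes phosphomevalonate kinase, which adds the second phosphate of mevalonate diphosphate. Its normalized counts were 368, 423 and 345 in shBrca2 and 590.1, 522 and 606 in shControl, with means of 379 ± 39.7 and 573 ± 44.4 (SD, n = 3). The highest shBrca2 library lay below the lowest shControl library, and the spread inside each group was much smaller than the gap between the means. Its log2 fold change was -0.60 (SE 0.16), a mean 1.51-fold higher in shControl, with an adjusted p of 0.027 in DESeq2. The call depended on the libraries included: without shBrca2 replicate 1, shBrca2 replicate 3 or shControl replicate 3 the log2 fold change stayed between -0.69 and -0.53, as over all 6 fits that left out a library, while the adjusted p in DESeq2 was 0.150, 0.233 and 0.178. RefSeq lists 2 windows before starts of Pmvk, and 3' end counts do not tell which start was used. The window with the most motif matches is shown because Pmvk was the called member. It covers the 250 bases before the start at chr3:89454291-89454540 on the plus strand of GRCm38.p6, with its single CCAAT box in capitals.
Pmvk: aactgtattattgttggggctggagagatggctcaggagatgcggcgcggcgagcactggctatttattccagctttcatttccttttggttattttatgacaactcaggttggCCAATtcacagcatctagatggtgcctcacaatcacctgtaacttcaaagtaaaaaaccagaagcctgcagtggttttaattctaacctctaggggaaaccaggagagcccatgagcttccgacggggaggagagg

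None of the other 6 members of the mevalonate steps was called. Hmgcs1 encodes the synthase that makes HMG-CoA, and its normalized counts were 484, 539 and 489.9 in shBrca2 and 511, 706 and 613 in shControl. Only the lowest shControl library lay within the shBrca2 range, and the difference did not pass (log2 fold change -0.28, SE 0.17, DESeq2 adjusted p = 0.702). Fdps, the synthase of farnesyl diphosphate, counted 1732 to 1905 in shBrca2 and 1961 to 2111 in shControl. The groups did not overlap, but the gap was small (log2 fold change -0.16, SE 0.13, DESeq2 adjusted p = 0.846). Acat2, Mvk and Mvd, which act at the first condensation, the first phosphorylation and the decarboxylation, had log2 fold changes of -0.09, -0.01 and -0.29. Idi1, the isomerase of isopentenyl diphosphate, stood at 0.44 with a standard error as large as the value (0.44) and normalized counts of 17.0 to 32.2. Taken as a group, 6 of the 7 mevalonate members had a log2 fold change below 0 and 1 above, with a median of -0.16. Hmgcs1 is shown here because, of the 29 members with a window to search, only its window held the core of the sterol regulatory element. The capitals in the window, chr13:119690101-119690350 on the plus strand of GRCm38.p6, mark that core (TCACCCCAC), 3 CCAAT boxes and 2 GC boxes.
Hmgcs1: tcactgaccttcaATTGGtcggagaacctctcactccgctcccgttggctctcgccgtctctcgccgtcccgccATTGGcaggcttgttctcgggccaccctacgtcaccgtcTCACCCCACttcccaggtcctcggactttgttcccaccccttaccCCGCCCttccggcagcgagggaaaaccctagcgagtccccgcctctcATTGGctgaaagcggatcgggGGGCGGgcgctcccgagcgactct

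The steps around squalene and lanosterol did not pass the test. Sqle encodes squalene epoxidase, a rate-limiting enzyme of the later pathway, and its normalized counts were 549, 353 and 601 in shBrca2 and 469.8, 469 and 374 in shControl. The shBrca2 libraries held both the highest and the lowest value, so that the groups overlapped (log2 fold change 0.19, SE 0.20, DESeq2 adjusted p = 0.899). Lss, which closes the rings to lanosterol, stood at -0.10, and Cyp51, the lanosterol demethylase, at -0.0037, which was also the median of these 3 members, with a mean of 137 normalized counts in both groups.

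Among the 7 later enzymes, which turn lanosterol-derived sterols into cholesterol, Ebp and Dhcr7 lay apart in opposite directions. Ebp (chrX:8185329-8193512) encodes the sterol isomerase that moves a double bond in the ring system. Its normalized counts were 1444, 1543 and 1548 in shBrca2 and 945, 1157 and 1198 in shControl, with means of 1512 ± 58.7 and 1100.1 ± 136 (SD, n = 3). Every shBrca2 library exceeded every shControl library. The log2 fold change of 0.46 (SE 0.15), a mean 1.37-fold higher in shBrca2, had an unadjusted p of 0.0016 and an adjusted p of 0.118 in DESeq2, outside both the adjusted p and the fold minimum. With 1 surrogate variable in the DESeq2 model, Ebp passed, at 0.55 with an adjusted p of 0.0146. That variable had its most extreme score, -0.73, in shControl replicate 3, and Ebp passed in no other alternative. Its window, shown as that of the member with the next smallest p, is chrX:8193513-8193762 on the minus strand of GRCm38.p6, read in the direction of the gene, and capitals mark 2 CCAAT boxes and 1 GC box.
Ebp: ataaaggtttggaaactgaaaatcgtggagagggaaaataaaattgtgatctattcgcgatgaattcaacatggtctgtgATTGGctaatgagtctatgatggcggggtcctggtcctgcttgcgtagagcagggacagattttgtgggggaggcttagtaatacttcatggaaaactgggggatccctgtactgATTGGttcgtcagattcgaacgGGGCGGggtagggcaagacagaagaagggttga

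Dhcr7 (chr7:143823167-143848410) encodes the reductase of the last step to cholesterol. Its normalized counts were 85.8, 92.6 and 94.8 in shBrca2 and 136, 122 and 146 in shControl. The shBrca2 libraries lay close together and all below the lowest shControl library, with means of 91.1 ± 4.71 and 135 ± 12.4 (SD, n = 3). At a log2 fold change of -0.56 (SE 0.22) its unadjusted p was 0.0119 and its adjusted p 0.332 in DESeq2, so that it was not called. Of the 3 windows before starts of Dhcr7, the one with the most matches is given, at chr7:143829964-143830213 on the plus strand of GRCm38.p6, with 2 CCAAT boxes and 3 GC boxes in capitals.
Dhcr7: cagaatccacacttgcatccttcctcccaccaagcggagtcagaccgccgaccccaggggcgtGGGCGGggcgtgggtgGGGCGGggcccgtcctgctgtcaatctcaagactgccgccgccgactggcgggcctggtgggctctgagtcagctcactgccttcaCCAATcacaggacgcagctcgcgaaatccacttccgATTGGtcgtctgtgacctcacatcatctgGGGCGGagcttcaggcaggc

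The remaining later enzymes were closer to 0. Msmo1 and Nsdhl, which remove methyl groups from the ring, had log2 fold changes of 0.20 and 0.24, and Sc5d, the sterol desaturase, of 0.16. Hsd17b7, the ketoreductase of the same demethylation, and Tm7sf2, a sterol reductase, had -0.06 and -0.19. The median over the 7 later enzymes was 0.16, with 4 above 0 and 3 below, and over the 17 sterol pathway members it was -0.056, with 6 above 0 and 11 below. Tm7sf2 overlaps Vps51 on the same strand, and its counts may include reads of that gene.

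**Figure D2:**
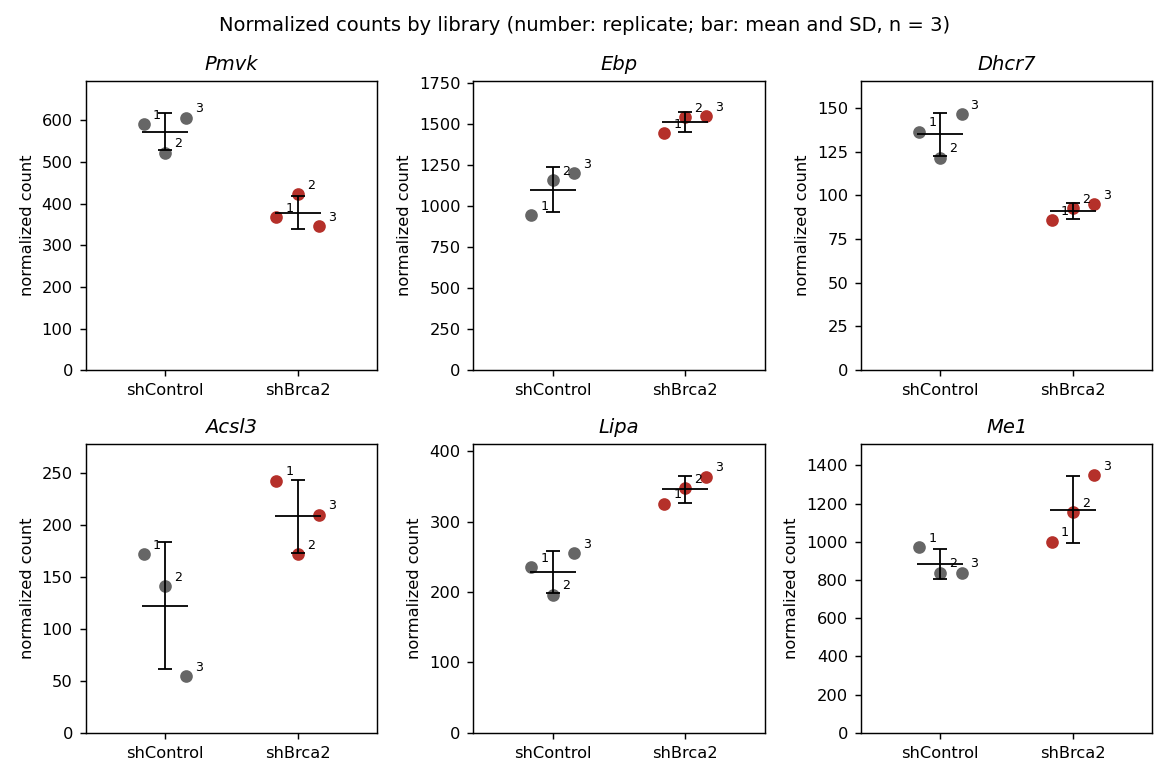
Normalized counts (vertical axes, from 0) in each shControl and shBrca2 library for the 4 members with an unadjusted p under 0.05 and the 2 related genes with the smallest p; points carry the replicate number and bars give the mean and SD (n = 3). Pmvk and Dhcr7 sit lower in every shBrca2 library and Ebp, Acsl3, Lipa and Me1 higher, with shControl replicate 3 far below the other Acsl3 points.

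None of the 6 SREBP regulators passed even an unadjusted p of 0.05, and in none were the groups apart. Srebf2 encodes the SREBP that mainly serves the sterol genes, and its normalized counts were 252, 354 and 255 in shBrca2 and 304, 395 and 394 in shControl. Replicates 1 and 3 of shBrca2 lay below all shControl libraries but replicate 2 did not (log2 fold change -0.34, SE 0.19, DESeq2 adjusted p = 0.665). Srebf1 encodes SREBP-1, whose forms mainly serve the fatty acid genes. Its counts were 497, 374 and 334 in shBrca2 and 381, 524 and 501 in shControl, where the range of one group covered most of the other (log2 fold change -0.23, SE 0.19, DESeq2 adjusted p = 0.860).

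Scap, the escort protein of the SREBPs, had normalized counts of 237, 248 and 143 in shBrca2 and 187, 216 and 178 in shControl. Both the 2 highest values and the lowest came from shBrca2 libraries, and the log2 fold change was 0.10 (SE 0.23). Insig1, which retains Scap in the endoplasmic reticulum and is itself a sensitive SREBP target, counted 36.8, 44.4 and 40.0 in shBrca2 and 21.2, 44.4 and 67.2 in shControl. Its shBrca2 libraries lay close together, while its shControl libraries spread over more than the whole shBrca2 range (log2 fold change -0.13, SE 0.38, DESeq2 adjusted p = 0.984). With 1 surrogate variable the Insig1 value turned to 0.39. Insig2, the second retention protein, and Stard4, a carrier of sterols between membranes, had log2 fold changes of 0.15 and 0.10. The median over the 6 regulators was -0.014, with 3 above 0 and 3 below, and it was 0.095 without shControl replicate 3 and -0.14 without shControl replicate 1.

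In fatty acid synthesis, the enzymes that make acetyl-CoA, malonyl-CoA and palmitate did not pass the test. Acly, the ATP citrate lyase that supplies acetyl-CoA in the cytosol, had normalized counts of 533, 505 and 334 in shBrca2 and 515, 621 and 513 in shControl. Only shBrca2 replicate 3 stood clearly below the shControl libraries (log2 fold change -0.27, SE 0.19, DESeq2 adjusted p = 0.790). Acaca, the acetyl-CoA carboxylase, counted 17.7, 41.6 and 22.6 in shBrca2 and 28.3, 30.2 and 68.2 in shControl. Its highest value was in shControl replicate 3 and its next highest in shBrca2 replicate 2, so that its log2 fold change of -0.61 came with a standard error of 0.44 (DESeq2 adjusted p = 0.792). It was -0.09 without shControl replicate 3, -1.05 without shBrca2 replicate 2 and -0.13 with 1 surrogate variable. Fasn, the fatty acid synthase, had only 5.45, 9.45 and 8.70 normalized counts in shBrca2 and 8.08, 11.7 and 9.89 in shControl. The groups overlapped, and at this depth its 95% interval ran from -1.61 to 0.98 (log2 fold change -0.31, SE 0.66), so that a difference inside these bounds could not be resolved. Acss2, which makes acetyl-CoA from acetate, stood at -0.25. All 4 of these log2 fold changes were below 0, with a median of -0.29 and no unadjusted p under 0.05, but their size turned on single libraries, Acly being -0.08 without shBrca2 replicate 3 and Acss2 -0.04 without shBrca2 replicate 2 and -0.54 without shBrca2 replicate 1.

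Desaturases and elongases showed no called change. Scd1, a stearoyl-CoA desaturase that makes oleate, had normalized counts of 699, 701 and 709 in shBrca2 and 587, 655 and 673 in shControl. Every shBrca2 library exceeded every shControl library, by a small margin (log2 fold change 0.14, SE 0.14, DESeq2 adjusted p = 0.895). Its paralog Scd2 counted 5489, 6165 and 6409.6 in shBrca2 and 6062, 5989 and 5854 in shControl. The shControl libraries fell inside the shBrca2 range, and the log2 fold change was 0.01 (SE 0.13), with a 95% interval from -0.24 to 0.26. Reads shared by the paralogs could be split by the counting, which was not tested. Fads2, the desaturase that opens the route to long polyunsaturated fatty acids, counted 196, 259 and 218 in shBrca2 and 262, 247 and 243 in shControl. These ranges overlapped too (log2 fold change -0.15, SE 0.18, DESeq2 adjusted p = 0.919). Fads1, its partner on the same route, stood at -0.23, and the elongases Elovl1, Elovl5 and Elovl6 at -0.08, 0.02 and 0.01.

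Acsl3 had the largest log2 fold change of the members on the higher side. Acsl3 (chr1:78657825-78707743) encodes a long-chain acyl-CoA synthetase, which activates fatty acids for use. Its normalized counts were 242, 172 and 209.7 in shBrca2 and 172, 141 and 54.4 in shControl. The lowest shBrca2 library exceeded the highest shControl library by less than 1 normalized count, and shControl replicate 3 lay far below all other libraries. The log2 fold change was 0.76 (SE 0.30), with an unadjusted p of 0.0116 and an adjusted p of 0.325 in DESeq2. Without shControl replicate 3 it was 0.41, and without shControl replicate 1 it was 1.08 with an adjusted p of 0.0659 in DESeq2, past the thresholds. Acsl3 overlaps Utp14b on the same strand, and reads of both may be counted together. Over the 12 fatty acid members the median was -0.12, with 5 above 0 and 7 below. The window before its start, shown because Acsl3 was among the members with the smallest p, is chr1:78657575-78657824 on the plus strand of GRCm38.p6. Capitals mark 5 GC boxes and 1 CCAAT box, the latter joined to a GC box near the start.
Acsl3: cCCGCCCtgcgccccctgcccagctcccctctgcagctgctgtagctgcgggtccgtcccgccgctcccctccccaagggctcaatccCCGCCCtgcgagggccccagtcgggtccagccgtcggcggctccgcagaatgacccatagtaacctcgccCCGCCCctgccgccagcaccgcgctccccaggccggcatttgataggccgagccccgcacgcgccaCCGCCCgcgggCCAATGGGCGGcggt

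Across members, the windows differed from those of all genes in the letters they held. RefSeq windows of 250 bases upstream of a start were at hand for 29 of the 35 members, 38 windows in all, and were searched on both strands. Fdps, Sqle, Stard4, Scd1, Scd2 and Fads1 had no window and were not searched. The core of the sterol regulatory element, TCACNCCAC, was in 1 window, that of Hmgcs1, or 2.63%, beside 1.05% of all 32851 windows. CCAAT boxes, which NF-Y binds, were in 63.2% of member windows and 33.8% of all windows. GC boxes (GGGCGG), which Sp1 binds, were in 73.7% and 32.7%, and E-boxes (CACGTG) in 15.8% and 6.02%. Pmvk had 1 CCAAT box and no GC box in its window, whereas Ebp, Dhcr7 and Acsl3 had both, so that neither motif separated the lower members from the higher ones. The GC content of the 5 windows shown ran from 47.2% to 75.6%, and its part in these shares was not tested. All windows together cover 27025 genes, not only the 10616 of the count table, and the part of this was not tested either. A match of letters describes the window and shows no binding.

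Extreme values of the members were unevenly shared between the libraries. The lowest value of the 6 libraries fell in shBrca2 replicate 1 for 11 of 35 members, or 31.4%, beside 15.4% of all genes tested. The highest value fell in shBrca2 replicate 3 for 10 members, or 28.6%, beside 19.7%. Acaca, Acsl3, Insig1 and Acss2 varied the most inside the groups, with pooled SDs of log2 normalized counts of 0.67, 0.65, 0.60 and 0.51, and Fdps, Scd1 and Scd2 the least, at 0.068, 0.074 and 0.084. Averaged over the 17 sterol pathway members, the deviation from each gene's mean log2 value was -0.028, -0.071 and 0.032 in shBrca2 and -0.024, 0.039 and 0.051 in shControl. The 6 SREBP regulators averaged 0.014, 0.065 and -0.14 in shBrca2 and -0.19, 0.054 and 0.20 in shControl. The 12 fatty acid members averaged -0.066, 0.030 and -0.072 in shBrca2 and 0.030, 0.027 and 0.050 in shControl. In all 3 groups of genes the ranges of shBrca2 and shControl overlapped, in the last only through shBrca2 replicate 2.

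**Figure D3:**
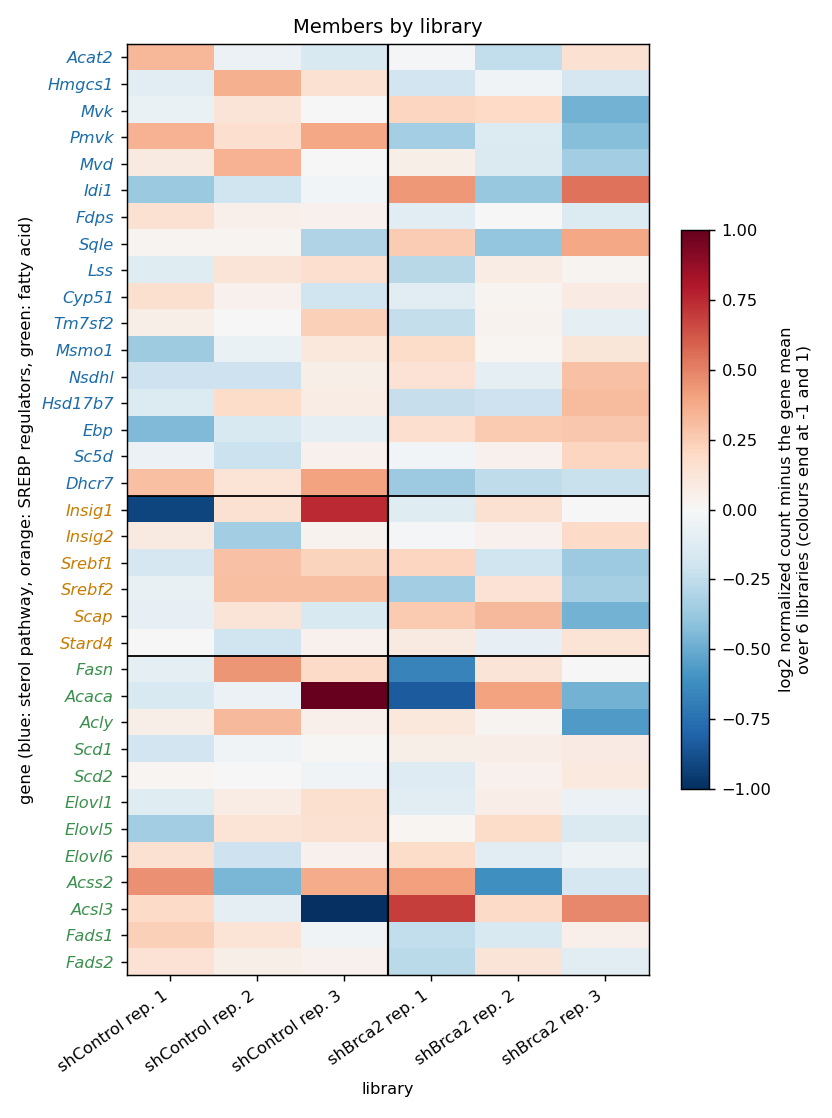
Deviation of each member's log2 normalized count from its mean over the 6 libraries (color, with the scale ending at -1 and 1), with members in rows by role and libraries in columns. Pmvk and Dhcr7 are lower and Ebp is higher in all 3 shBrca2 libraries, while Acaca, Acsl3 and Insig1 owe their strongest colors to single libraries.

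Related genes of lipid metabolism were read beside the members: 83 of 98 listed genes were in the table, and 81 were tested. Lipa rose and was the 1 gene called among them, beside 1.27% of all genes tested. Lipa encodes the lysosomal acid lipase, which frees cholesterol and fatty acids from lipoproteins taken up by the cell. Its normalized counts were 326, 348 and 364 in shBrca2 and 235, 196 and 255 in shControl. Every shBrca2 library exceeded every shControl library (log2 fold change 0.60, SE 0.18, 1.51-fold, DESeq2 adjusted p = 0.0678). The call was lost in 5 of the 6 fits without a library, where it remained only without shControl replicate 3, and the log2 fold change stayed between 0.50 and 0.68.

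Genes of fatty acid oxidation, which breaks the chains down, were mostly on the higher side, and none was called. Of 17 tested, 12 had a log2 fold change above 0 and 5 below, with a median of 0.16, and 5 had an unadjusted p under 0.05, all on the higher side. That is 29.4%, beside 8.66% of all genes tested in either direction and 4.55% on the higher side. The list was chosen with earlier results of these data known, so that its shares only describe these genes. Eci2, an enoyl-CoA isomerase, had 222, 163 and 196 normalized counts in shBrca2 and 125, 126 and 150.3 in shControl (log2 fold change 0.53, DESeq2 adjusted p = 0.324). Etfa, an electron acceptor of the acyl-CoA dehydrogenases, counted 304, 359 and 501 against 299, 281 and 253 (log2 fold change 0.49, DESeq2 adjusted p = 0.368). Cpt1a, which admits long chains to the mitochondrion, counted 200.2, 233 and 251 against 181, 182 and 162 (log2 fold change 0.39, DESeq2 adjusted p = 0.550). In these 3 of 17 genes every shBrca2 library exceeded every shControl library, beside 10.2% of all genes tested. Acadm and Acadl, dehydrogenases of medium and long chains, stood at 0.41 and 0.36 with overlapping groups and adjusted p of 0.527 and 0.555 in DESeq2. Without shBrca2 replicate 3 Etfa was 0.26 and Acadm 0.27, and Acadl was 0.24 without shControl replicate 3 and 0.23 with 1 surrogate variable.

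Few genes of the other related lists had an unadjusted p under 0.05. Me1, the malic enzyme that supplies NADPH for fatty acid synthesis, had a log2 fold change of 0.40 (DESeq2 adjusted p = 0.310), with 1001, 1155 and 1349 normalized counts in shBrca2 and 973, 839 and 839 in shControl, and was the 1 gene of 18 in its list with an unadjusted p under 0.05. Lipe, the hormone-sensitive lipase, stood at -0.99 (SE 0.45, DESeq2 adjusted p = 0.468), from 13.1 to 16.3 normalized counts in shBrca2 and 23.7 to 37.7 in shControl, and was the 1 of 14 in the glycerolipid list. Another list held 13 genes that make or use isoprenoids downstream of farnesyl diphosphate, or that process proteins carrying them. None of these had an unadjusted p under 0.05, and their median was -0.13. In 3 of the 13 the groups did not overlap, all lower in shBrca2, beside 10.4% lower of all genes tested. The sterol list of 19 tested genes, to which Lipa belongs, had no other gene with an unadjusted p under 0.05.

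**Figure D4:**
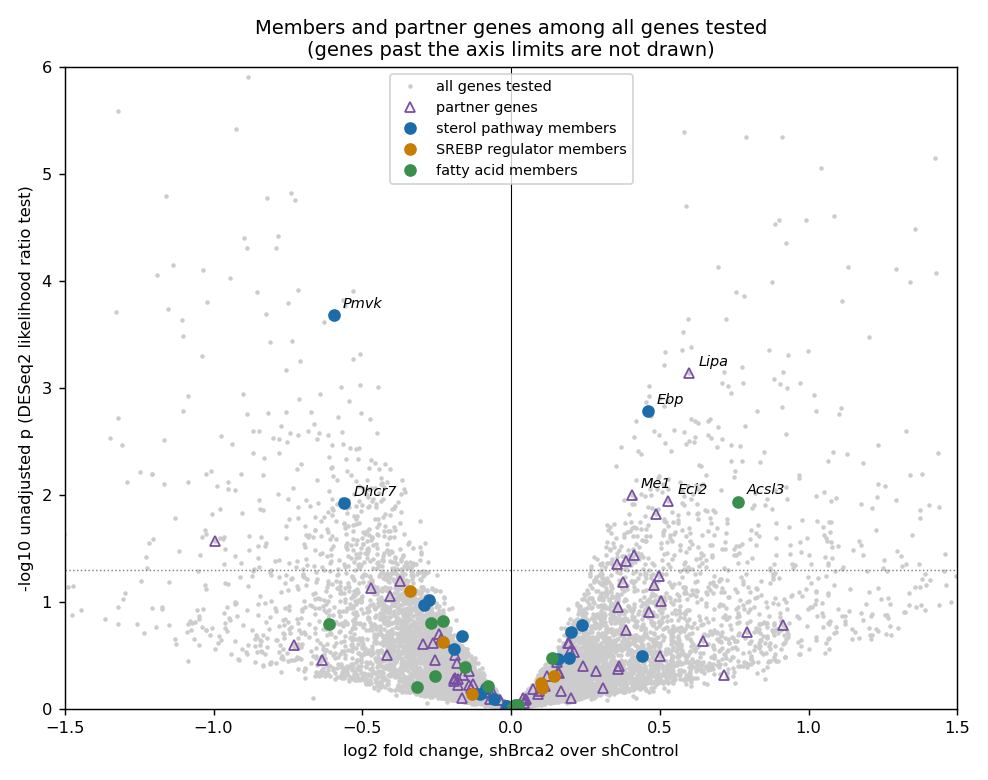
Log2 fold change of shBrca2 over shControl (horizontal axis) against -log10 of the unadjusted p of the DESeq2 likelihood ratio test (vertical axis) for all genes tested (gray), the members by role and the related genes (triangles); the dotted line marks an unadjusted p of 0.05. Pmvk is the member with the smallest p and Lipa the related gene with the smallest p.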

How the data were processed

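RNA of KPC-shBrca2 and KPC-shControl cells (3 libraries each) was sequenced by a variation of MARS-seq, a 3' end method in which a count does not scale with transcript length. The authors deposited raw counts, with gene symbols in rows and the 6 libraries in columns. The submitters' processing notes name bcl2fastq, cutadapt, STAR 2.4.2a, HTSeq, DESeq2 and mm10. Whether molecular identifiers were collapsed, whether counting used strand, and which annotation was used are not given in the sources used here. In 12 members a coding gene overlaps on the opposite strand. Every gene in the table has at least 6 counts in some library.

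Groups came from the labels, which give no batch and no replicate numbers shared between groups. Following the study's methods, group was tested against an intercept with the likelihood ratio test of DESeq2 1.42.0 (R 4.3.3) on all 10616 genes, with median-of-ratios size factors. An adjusted p was obtained for 9997 genes, since 619 others were mostly under the independent filter (mean 4.64). Calls needed an adjusted p (Benjamini-Hochberg) under 0.1, a log2 fold change over 0.5 in size and a mean normalized count over 5. Counts were divided by size factors to give normalized counts, fold changes were not shrunken, and intervals are 95% from the standard error. Total counts were 1519340 to 2452467 per library. The fits were tested on simulated data.

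Alternatives were edgeR 4.0.16 (quasi-likelihood), the Wald test, other scalings, filters and thresholds, 1 surrogate variable (sva 3.50.0) and leaving out each library. Positions and upstream windows are from RefSeq GRCm38.p6, and overlaps from GENCODE. The members and gene lists were chosen with earlier results of these data known. Brca2 and all members were to be named, with values per library for those with an unadjusted p under 0.05 and for 12 enzymes and regulators. Of the related genes listed, 1 is not reported here and was left out of the lists and their counts. Related genes were named if called or among up to 8 others with an unadjusted p under 0.05. Windows were shown for the called member and the 3 with the next smallest p, and those with the most matches and that of Hmgcs1 were picked after the search.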

Additional observations from a re-analysis of the deposited data

How the results depend on the processing

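Pmvk was called in all alternatives with 6 libraries (adjusted p from 0.0195 in DESeq2 with TMM factors to 0.0830 in edgeR). The number of members called was 2 with 1 surrogate variable (Pmvk and Ebp) and from 0 to 2 when a library was left out, being 0 without shBrca2 replicate 1, shBrca2 replicate 3 or shControl replicate 3, and 2 without shControl replicate 1 (Pmvk and Acsl3). Members with an unadjusted p under 0.05 then numbered from 2 to 6. All genes called numbered from 47 to 140 without a library (47 without shBrca2 replicate 3, 55 without shControl replicate 2, 81 without shBrca2 replicate 1) and, with all 6, from 121 to 157 over the refits, 94 at an adjusted p under 0.05 and 131 with no fold minimum. Related genes called were 0 at an adjusted p under 0.05 and from 0 to 1 without a library (Lipa, without shControl replicate 3), and 1 (Lipa) in the other alternatives. In the fits that gave it an adjusted p, Brca2 kept a log2 fold change from -1.70 to -1.46, with its call lost in DESeq2 without shBrca2 replicate 2 (adjusted p = 0.152), shBrca2 replicate 3 (0.233) or shControl replicate 2 (0.371). With TMM factors, with the minimum of 10 counts or with 1 surrogate variable, Brca2 had no adjusted p and so could not be called. Leaving out a library moved the median of the sterol pathway members from -0.14 to 0.015 and that of the fatty acid members from -0.13 to -0.052, and edgeR gave -0.073 for the latter. The median of the SREBP regulators (-0.014) ran from -0.14 to 0.095 without a library and was 0.10 with 1 surrogate variable, so that its sign turned. Log2 fold changes near 0 turned sign: with 1 surrogate variable Mvk was 0.019, Insig1 0.39, Elovl1 0.010 and Elovl6 -0.050, and Cyp51 was 0.0019 in edgeR and 0.0016 with the minimum of 10 counts. Without a library, sign turned within the ranges -0.19 to 0.074 (Acat2), -0.12 to 0.19 (Mvk), -0.10 to 0.075 (Cyp51), -0.27 to 0.034 (Hsd17b7), -0.46 to 0.29 (Insig1), -0.043 to 0.32 (Scap), -0.033 to 0.074 (Scd2), -0.12 to 0.11 (Elovl5) and -0.089 to 0.087 (Elovl6). The cause was not tested. Of 514 comparisons of a member with an alternative, 484 kept direction and side of the threshold, 3 lost and 2 gained the call, and 25 turned sign, in 10 genes. Alternatives in which a member had no adjusted p are not counted. Fasn had one in only 3 of the 6 fits without a library and in 2 alternative fits with all libraries, and Idi1 in 4 of the latter. Comparisons at other thresholds, by the Wald test or without the independent filter kept the main log2 fold change and could not turn sign. No paired analysis was possible because the labels give no replicate numbers and numbers in accession order pair nothing. Standard errors were largest for Fasn (0.66), Idi1 (0.44), Acaca (0.44) and Insig1 (0.38), which had few counts. Acaca and Insig1 also varied widely inside the groups, with pooled SDs of log2 normalized counts of 0.67 and 0.60. The parts of depth and of this spread were not tested. With 3 libraries a group, each adjusted p can turn on 1 library.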
